A study of Mus musculus with 22 samples.

Results

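Macrophages received lipopolysaccharide (LPS) and interleukin-10 (IL-10) together, each alone, or neither, and the LPS by IL-10 interaction at 6 h asks, gene by gene, whether the joint treatment gave the level that the 2 single treatments add up to. The interaction was the mean of the LPS+IL-10 libraries minus the mean of the LPS libraries, less the mean of the IL-10 libraries minus the mean of the untreated libraries, each on the log2 scale of normalized reads plus 1. A positive value means a level above log-additivity (synergy, or an IL-10 effect that lifts what LPS lowers), and a negative value a level below it (antagonism). The estimate rested on 8 of the 22 libraries of the series, 2 per group, and was tested in 12817 genes. In limma's moderated test with Benjamini-Hochberg adjustment over these genes, 861 (6.72%) departed from log-additivity at an adjusted p under 0.05. All adjusted p-values come from this two-sided test unless another tool is named, and each value after ± is a standard error.

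The groups were LPS+IL-10 for 6 h, LPS for 6 h, IL-10 for 6 h and untreated, with 100 ng per ml of each agent. All 4 groups were bone marrow-derived macrophages from Il10-/- mice of C57BL/6 background aged 6 to 12 weeks, so their own Il10 gene was meant to be inactive. The cells had been grown for 7 to 8 days in medium with L929 cell supernatant, a source of macrophage colony-stimulating factor. The deleted allele, the time at which the untreated cells were taken, and whether replicates came from separate cultures or mice are not stated in the labels. Each p-value therefore measures only the spread between libraries. In the main fit this spread came from all 14 libraries of the 6 h and 12 h table. Effects of hours in culture cannot be told apart from effects of treatment in contrasts with the untreated pair. Il10 transcripts were counted at 1058 and 1456 normalized reads with LPS+IL-10, 581 and 707 with LPS alone, 496 and 370 with IL-10 alone, and 195 and 454 without treatment. Since reads may fall outside the deleted part, these values do not check the genotype, and the interaction of Il10 was 0.43 ± 0.49 (SE, adjusted p = 0.571).

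LPS binds Toll-like receptor 4 and, through MyD88 and TRIF, activates NF-kappa-B, MAP kinases and interferon regulatory factors, which switch on cytokine, chemokine and interferon genes. IL-10 binds a receptor whose Jak1 and Tyk2 kinases activate STAT3, and it is known as the main brake on inflammatory gene expression in macrophages. Hypoxia-inducible factor (HIF) adds a further layer in these cells: its alpha subunit is marked for destruction by prolyl hydroxylases (the Egln enzymes), and those same enzymes are among its targets.

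Recovered depth over the 8 libraries ran from 15162195 reads in the first LPS library to 31772075 in the first LPS+IL-10 library. After the authors' scaling the library totals were 26461478 and 28461924 normalized reads with LPS+IL-10, 32877731 and 35469303 with LPS alone, 14905194 and 14723518 with IL-10 alone, and 14632292 and 16377752 without treatment, so totals differed between groups. All 8 macrophage markers were measured, with summed levels of 422200 and 389200 normalized reads with LPS+IL-10, 584900 and 626300 with LPS alone, 330900 and 394100 with IL-10 alone, and 370400 and 442400 without treatment. Of these 8 markers 3 (Adgre1, Fcgr1 and Mertk) had a negative interaction at an adjusted p under 0.05, beside 2.26% of all genes tested. The median interaction of the 8 was -0.83. The summed markers of T cells, B cells, NK cells, neutrophils, mast cells, dendritic cells, fibroblasts, osteoclasts and erythroid cells lay between 0 and 390.3 normalized reads per library, and Cd3g, Tpsb2, Col3a1, Hbb-bs and Hba-a1 were at 0 in all 8. The fibroblast sum, with Dcn as its highest member, was 65.0 and 67.0 with LPS+IL-10, 228 and 225 with LPS alone, 4.08 and 3.53 with IL-10 alone, and 4.68 and 4.96 without treatment. The dendritic cell sum was 99.1 and 135 with LPS+IL-10, 241 and 224 for LPS alone, 24.5 and 20.6 for IL-10 alone, and 19.7 and 34.1 untreated. The T cell sum was 184 and 135 with LPS+IL-10, 282 and 228 for LPS alone, 55.4 and 67.1 for IL-10 alone, and 57.1 and 65.1 untreated. The osteoclast sum was 242 and 229 with LPS+IL-10, 390.3 and 348 for LPS alone, 96.2 and 117 for IL-10 alone, and 128 and 92.3 untreated. All 4 sums were highest with LPS alone, next with both agents and low without LPS. This is the order of the curbed rises described further on. The T cell sum had Lck (mean 84.6) and the dendritic cell sum Xcr1 (65.2) as highest member. By contrast, the B cell sum was higher without LPS, at 70.9 and 97.1 with IL-10 alone and 78.7 and 58.9 untreated. It was 19.2 and 14.8 with LPS+IL-10 and 30.4 and 19.6 with LPS alone. The neutrophil sum was highest without treatment (105 and 126). The part of these cell types in the curbed rises was not tested. The 2 untreated libraries stood furthest apart: the SD of the log2 difference between replicates over genes was 0.57 with LPS+IL-10, 0.55 for LPS, 0.33 for IL-10 and 0.80 without treatment. In bulk RNA, fewer cells of a type and less RNA per cell cannot be told apart.

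Of the 861 genes, 571 lay above log-additivity (4.46% of genes tested) and 290 below it (2.26%). Positive interactions had a median of 1.91 and ran from 0.82 to 6.04, while negative ones had a median of -1.72 and were 0.77 to 5.32 in size, against a median of 0.07 over all genes. All 861 had the same sign in every one of the 16 combinations of 1 library per group. On the additive scale of normalized reads, 564 of the 571 (98.8%) and 288 of the 290 (99.3%) had the same sign. The positive share was 66.3% with the authors' scaling and 83.6% (934 positive, 183 negative) when every library was given the same total, which moved the median of all genes by 0.24. The count tests on recovered reads called 543 positive and 247 negative genes (edgeR) and 1159 and 574 (DESeq2).

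How many genes passed depended on single libraries. A group left with 1 library was assumed to vary like the others. Without the first LPS+IL-10 library 520 genes were positive and 439 negative, and without the second 109 and 42. The counts were 153 and 47 without the first LPS library, and 278 and 89 without the second. They were 127 and 47 without the first IL-10 library, and 110 and 38 without the second. Without the first untreated library 2231 genes were positive and 1989 negative, and without the second 220 and 108. None of the 861 genes could take the opposite sign in these fits, since each had 1 sign in all 16 library combinations. The naming rule gave 65 called genes, of which 37 lost their call without at least 1 library. The other 28 were called in every alternative, among them Hp, Egln3, Arg2, Lhfpl2, Pfkfb3, Spata13, Ggta1, Ppp1r3b, Pde5a, Kcnk13, S100a8, Slc16a1, Ankrd37, Ndrg1, Bnip3, Ddit4, Fosl2, Cebpb and Tnfsf9 on the positive side and Cish, Ccl8, Fgl2, Il12rb1, Arhgap22 and Abcg1 on the negative side.

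The called genes also differed in base composition. Their median GC content was 46.6% for positive and 52.6% for negative genes, against 49.1% for all tested. The difference between replicates followed GC content too, with a rank correlation over 12688 genes of 0.705 within LPS+IL-10, 0.547 within LPS, -0.488 within IL-10 and 0.804 within the untreated pair. With each library's trend along GC content removed, 1232 genes were positive (9.61%) and 930 negative (7.26%), 16.9% in all, among them 544 of the 571 and 269 of the 290. The part of base composition in these results was not tested further.

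**Figure D1:**
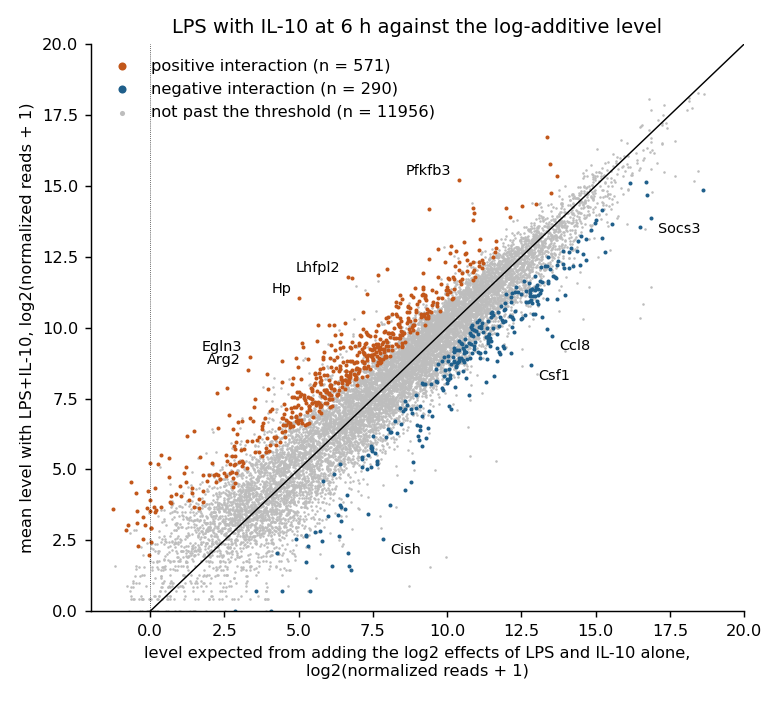
Each point is 1 of 12817 genes; the x axis gives the level expected from adding the log2 effects of LPS alone and IL-10 alone to the untreated level, and the y axis the mean level with LPS+IL-10, both as log2(normalized reads + 1), n = 2 libraries per group. Points above the diagonal have a positive interaction (571 called, such as Hp and Pfkfb3) and points under it a negative one (290 called, such as Cish and Csf1).

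The genes fell into a few patterns. With joint treatment, 220 of the 571 positive genes (38.5%) were above all 6 other libraries, a pattern called a joint rise here. LPS alone also lowered many of these 220: its effect passed the threshold downward in 81 and upward in 44, at a median of -0.34. A joint rise can thus include the reversal of a fall with LPS. The other 351 positive genes (61.5%) were all lower with LPS than untreated and higher with LPS+IL-10 than with LPS, here a relieved fall. Their median LPS effect was -2.28 and their median difference between LPS+IL-10 and LPS 1.65, and these contrasts share libraries with the interaction. Among the 290 negative genes, 209 (72.1%) were higher with LPS than untreated and lower with LPS+IL-10 than with LPS (a curbed rise). A further 78 (26.9%) were under all 6 other libraries with joint treatment (a joint low). In Socs3, Stat3 and Tmem173 each agent alone gave more than untreated, and the joint level was not below LPS in both libraries (a capped rise). No called gene fell outside these patterns.

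Promoters are shown for 2 positive and 2 negative genes, to set the sequence before the start site beside the response. Egln3 and Cish have the leading interactions among called genes with a RefSeq promoter. Ifnb1 is the interferon gene of the panel. Ankrd37, the HIF target with the second largest interaction, is not among the 12 largest positive ones. Zfp618, Saa1 and Vmn2r90, which also lead among called genes with a promoter, are not shown. The promoters come from RefSeq (GRCm38.p6), read 5′ to 3′ on the gene's strand from 250 bases before the start to 50 after it. Capitals mark matches on either strand to TTCNNNGAA (a STAT-type site), to an NF-kappa-B-type site (GGG and CC with 5 bases between), to an interferon response-type site (GAAA repeated with 2 bases between) and to ACGTG or GCGTG (the HIF core). The HIF core was added after the values were seen. Egln3 lies at chr12:54203825-54204124 on the minus strand, Ankrd37 at chr8:45999801-46000100 on the minus strand, Cish at chr9:107296409-107296708 on the plus strand and Ifnb1 at chr4:88522745-88523044 on the minus strand.
Egln3: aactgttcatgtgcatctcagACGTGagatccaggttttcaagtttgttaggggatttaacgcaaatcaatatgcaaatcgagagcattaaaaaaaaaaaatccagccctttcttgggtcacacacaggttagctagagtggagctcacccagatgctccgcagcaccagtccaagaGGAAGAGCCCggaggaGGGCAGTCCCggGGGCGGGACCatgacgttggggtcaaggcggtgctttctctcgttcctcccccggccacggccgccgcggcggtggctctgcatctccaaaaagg
Ankrd37: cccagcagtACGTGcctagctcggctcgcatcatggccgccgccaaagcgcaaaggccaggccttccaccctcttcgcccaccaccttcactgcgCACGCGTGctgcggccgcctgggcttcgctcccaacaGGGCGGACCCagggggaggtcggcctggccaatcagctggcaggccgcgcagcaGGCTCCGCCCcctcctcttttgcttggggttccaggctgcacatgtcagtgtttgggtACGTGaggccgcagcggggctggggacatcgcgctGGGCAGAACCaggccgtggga
Cish: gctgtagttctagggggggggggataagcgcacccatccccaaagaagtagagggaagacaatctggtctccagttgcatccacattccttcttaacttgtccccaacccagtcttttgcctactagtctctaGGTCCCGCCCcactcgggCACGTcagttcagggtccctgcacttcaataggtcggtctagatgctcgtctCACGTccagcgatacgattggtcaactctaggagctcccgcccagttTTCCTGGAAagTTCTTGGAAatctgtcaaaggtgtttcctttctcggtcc
Ifnb1: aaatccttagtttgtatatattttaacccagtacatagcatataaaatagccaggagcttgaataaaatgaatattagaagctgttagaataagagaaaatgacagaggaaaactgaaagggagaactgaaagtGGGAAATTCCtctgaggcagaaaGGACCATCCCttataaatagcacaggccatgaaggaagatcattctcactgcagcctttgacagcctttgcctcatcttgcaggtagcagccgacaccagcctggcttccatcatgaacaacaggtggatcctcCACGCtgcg
Egln3 holds 1 HIF core and 3 NF-kappa-B-type matches, and Ankrd37 holds 4 HIF cores, 2 of which overlap, and 3 NF-kappa-B-type matches. Cish holds 2 adjacent STAT-type matches that begin at positions 251 and 262 of the window, 1 NF-kappa-B-type match and 2 HIF cores. Ifnb1 holds 2 NF-kappa-B-type matches, at positions 135 and 158, and 1 HIF core. HIF cores were thus present in both the positive and the negative genes shown. Of the leading genes not shown, Zfp618 holds 1 HIF core and Saa1 and Vmn2r90 hold none. Of 32851 promoters of the same length, 8.3% hold TTCNNNGAA, 50.8% the NF-kappa-B-type site, 3.44% the interferon response-type site, 19.6% ACGTG and 32.4% GCGTG. A match is a description of the letters and not a bound site.

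The 12 largest positive interactions were taken among called genes with a mean of at least 100 normalized reads in some group. They belonged to Hp, Egln3, Zfp618, Saa1, Arg2, Lhfpl2, Spata13, Pfkfb3, Ggta1, Ppp1r3b, Pde5a and Kcnk13. Hp, which encodes the haemoglobin-binding plasma protein haptoglobin (chromosome 8, 109575128 to 109579172), had 2888 and 1534 normalized reads with LPS+IL-10, 39.0 and 37.5 with LPS alone, 12.2 and 10.6 with IL-10 alone, and 21.5 and 9.30 without treatment. Both joint libraries exceeded every other library many times over, while LPS alone was slightly above untreated and IL-10 alone overlapped with it. Its interaction was 6.04 ± 0.78 (adjusted p = 0.00315). Arg2, the mitochondrial arginase, showed the same shape, with 349 and 384 normalized reads for LPS+IL-10, 10.8 and 9.79 for LPS alone, 4.08 and 4.12 for IL-10 alone, and 4.68 and 4.96 untreated. Groups did not overlap between the joint treatment and the rest, and its interaction was 5.21 ± 0.58 (adjusted p = 0.00155). Arg2 shares exon sequence with Vti1b in the annotation, so reads of the 2 genes may not be fully separable.

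Pfkfb3 makes fructose-2,6-bisphosphate, the strongest activator of phosphofructokinase and so of glycolysis. It reached 37808 and 36946 normalized reads with LPS+IL-10, against 1433 and 1485 with LPS alone, 589 and 610 with IL-10 alone, and 601 and 705 untreated. The joint level was far above all others, the LPS level was above the untreated one, and IL-10 alone overlapped with untreated. The interaction of Pfkfb3 was 4.80 ± 0.57 (adjusted p = 0.00231). Lhfpl2, a tetraspan membrane protein gene, had the smallest adjusted p of all genes, 2.97e-05, at 5.12 ± 0.29. Its levels were 3399 and 3645 with LPS+IL-10, 93.2 and 99.5 with LPS alone, 2858 and 2636 with IL-10 alone, and 2640 and 2646 without treatment. LPS alone stood apart on the low side, and with IL-10 present the LPS-treated cells were slightly above the cells without LPS. Ggta1 (a galactosyltransferase of cell-surface glycans, 4.77 ± 0.36) and Ppp1r3b (a subunit that targets protein phosphatase 1 to glycogen, 4.44 ± 0.33) had the same order, lowest with LPS and highest with both. Spata13, a guanine nucleotide exchange factor, Pde5a, the cyclic GMP phosphodiesterase, and the zinc finger gene Zfp618 were joint rises with interactions of 4.94 ± 0.54, 4.43 ± 0.52 and 5.46 ± 0.91. In Zfp618 LPS alone was also under untreated, at 0 and 3.26 normalized reads against 36.5 and 31.6. Kcnk13, a two-pore potassium channel gene, was a relieved fall at 4.38 ± 0.44: it had 456 and 438 normalized reads with LPS+IL-10, 15.2 and 21.2 with LPS alone, 1109 and 1044 with IL-10 alone, and 942 and 949 untreated. Without the second IL-10 library Zfp618 had an interaction of 5.24 with an adjusted p of 0.0527.

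Saa1, an acute-phase apolipoprotein, was nearly absent outside the joint treatment, with 477 reads in the 2 LPS+IL-10 libraries, 8 with LPS, 0 with IL-10 and 1 untreated. Its estimate of 5.28 ± 1.06 (adjusted p = 0.019) therefore depends on the added constant, and edgeR gave an adjusted p of 0.223. Calls were also lost without the second untreated library (0.063), the first LPS library (0.0847), the second LPS+IL-10 library (0.0872) and either IL-10 library (0.0742 and 0.0813). Saa1 and Saa2 are near-identical, so their reads may be split between them. Of the 11 measured acute-phase and calgranulin genes, 4 were positive (Hp, Saa1, Saa2 and S100a8) and 2 negative (the scavenger receptor Marco and complement C3), and their median was 1.54. S100a8, a calcium-binding calgranulin, had 2118 and 2597 normalized reads with LPS+IL-10, 215 and 233 with LPS alone, 118 and 149 with IL-10 alone, and 160 and 219 untreated. Only the joint libraries stood clear of the rest, and its interaction was 3.88 ± 0.48 (adjusted p = 0.00274). Its partner S100a9 did not pass, at 0.92 ± 0.35 (adjusted p = 0.121). The call of C3 was lost without any 1 of 6 libraries (adjusted p from 0.0509 to 0.089), and that of Marco without any 1 of 3 (0.0641 to 0.0781). C3 was a curbed rise at -2.06 ± 0.41, with 30766 and 21875 normalized reads for LPS+IL-10 against 103873 and 98653 for LPS alone, 1231 and 1322 for IL-10 alone, and 1337 and 1060 untreated.

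**Figure D2:**
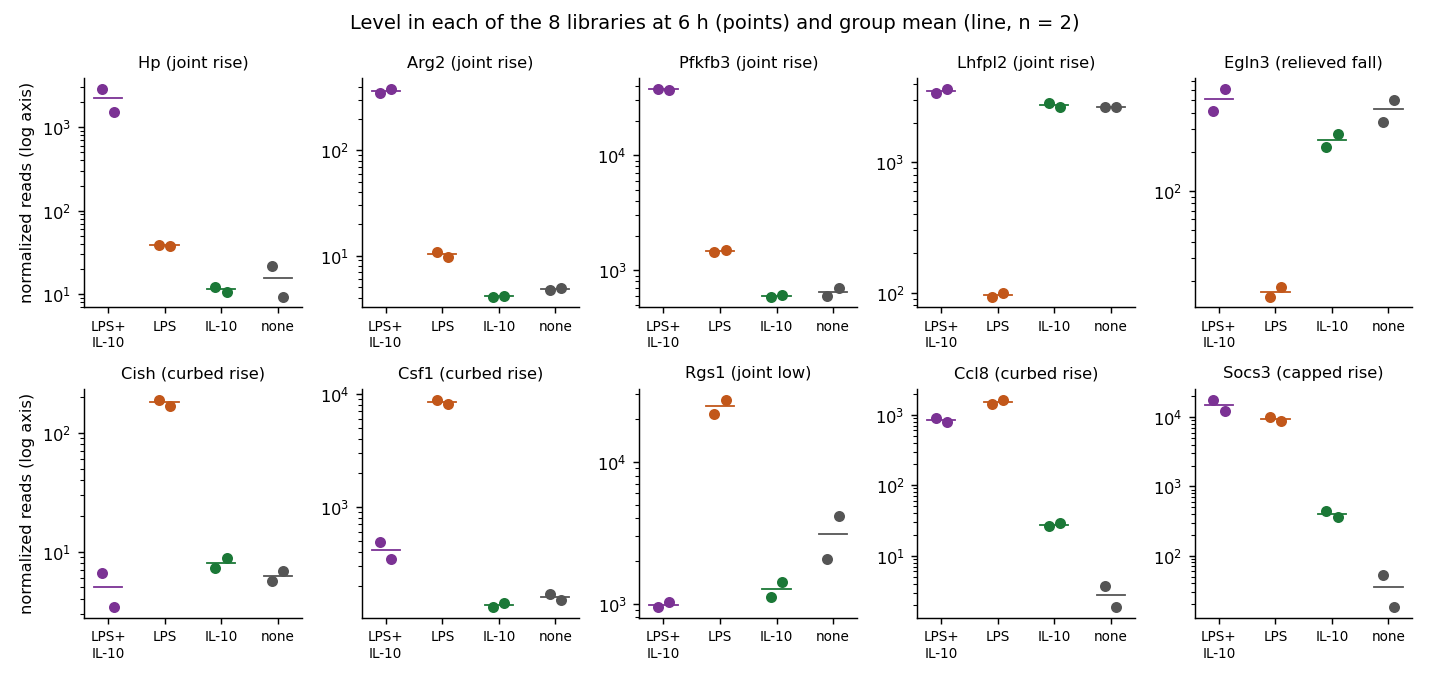
Normalized reads (log axis) of 10 genes in each of the 8 libraries, with LPS+IL-10, LPS, IL-10 and untreated (none) from left to right; points are libraries, lines the group means (n = 2), and the pattern of each gene is in its title. Hp, Arg2 and Pfkfb3 were high only in the joint libraries, Lhfpl2 and Egln3 were low only with LPS, and Cish and Csf1 were high only with LPS.

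HIF targets formed the list with the largest share of positive interactions: 11 of 16 were positive and none negative, with a median of 1.72 against 0.07 over all genes. The list holds targets and Hif1a itself. Egln3, a prolyl hydroxylase, had 411 and 612 normalized reads with LPS+IL-10, 15.18 and 17.95 with LPS alone, 216 and 274 with IL-10 alone, and 342 and 505 without treatment. LPS alone was lowest by far and the joint libraries overlapped with the untreated ones, which gave an interaction of 5.61 ± 0.48 (adjusted p = 0.00035). Its paralogue Egln1 followed the same order at 2.42 ± 0.35. Ankrd37, an ankyrin repeat gene known as a HIF-1 target, had 234 and 220 normalized reads with LPS+IL-10, 17.4 and 21.2 with LPS alone, 86.4 and 94.7 with IL-10 alone, and 112 and 123 untreated. In this gene the joint level was also above untreated, and its interaction was 3.87 ± 0.34 (adjusted p = 0.000431), although Ankrd37 overlaps exons of Ufsp2.

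Ndrg1, a stress-responsive gene, had 7457 and 7604 normalized reads with LPS+IL-10, 614 and 587 with LPS alone, 1921 and 1436 with IL-10 alone, and 825 and 983 untreated, an interaction of 2.76 ± 0.32. Here IL-10 alone was above untreated and LPS alone below, and the joint level was the highest. Bnip3, a mitophagy receptor, was positive at 3.08 ± 0.41, and Vegfa, the endothelial growth factor, at 2.81 ± 0.46. Hif1a, the inducible alpha subunit, had 16744 and 23870 normalized reads with LPS+IL-10, 6267 and 7744 with LPS alone, 3067 and 2561 with IL-10 alone, and 2484 and 4362 untreated. Both single-agent groups sat below the joint one, IL-10 overlapped with untreated, and the interaction was 1.75 ± 0.41 (adjusted p = 0.0334). Kdm3a (a histone demethylase, 1.86), Mxi1 (a Myc antagonist, 1.68), Ero1l (an endoplasmic reticulum oxidase, 1.66) and Hilpda (a lipid droplet protein, 1.42) completed the positive members. Bnip3l, another mitophagy receptor, missed the threshold at 1.49 ± 0.40 (adjusted p = 0.0509), as did Adm, Car9, P4ha1 and P4ha2, which ran from -0.80 to 1.22. Between 9 and 12 of the 16 were positive under the other scalings, count tests, GC correction and fits, and between 6 and 12 when 1 library was left out. A promoter in the RefSeq table was found for 14 of the 16. All 14 hold ACGTG or GCGTG in at least 1 promoter. Counted by promoter it was 16 of their 20, against 43.8% of all promoters. The 14 include Adm, Car9, P4ha1 and P4ha2, which did not pass. As the list was made of known HIF targets, this share describes the list and is not a result on the interaction.

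**Figure D3:**
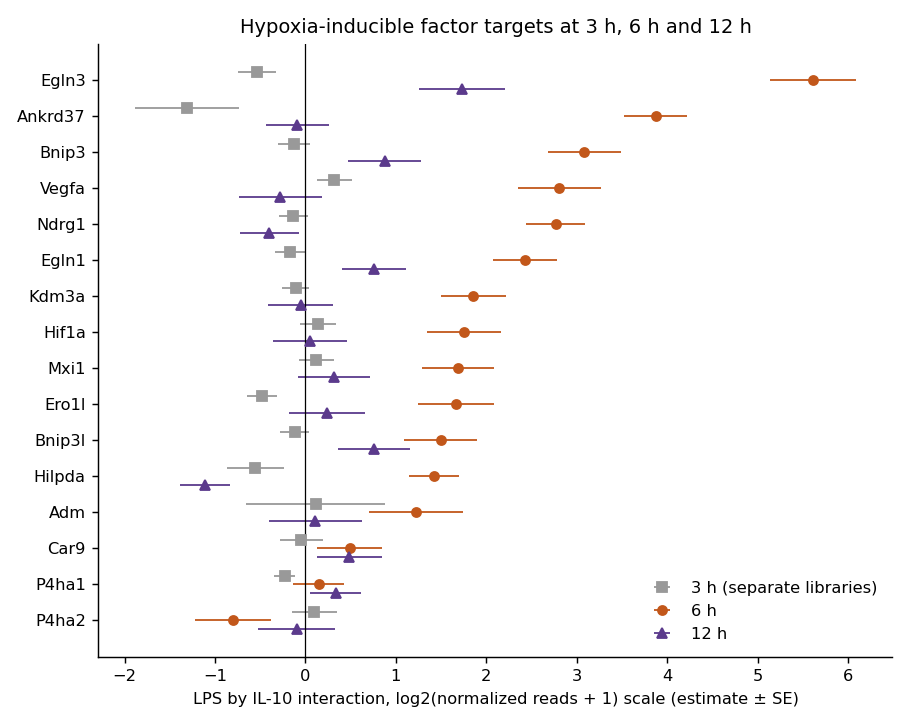
Interaction estimate ± SE on the log2(normalized reads + 1) scale for the 16 HIF targets at 3 h (separate libraries), 6 h and 12 h, 1 gene per line. At 6 h 15 of the 16 lie above 0, with Egln3 at 5.61, while the list medians at 3 h and 12 h were -0.12 and 0.17.

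In glycolysis, 4 of 24 glycolysis genes were positive and 2 negative, and the list median was -0.19. Beside Pfkfb3, the lactate transporter Slc16a1 was positive at 4.16 ± 0.40 (adjusted p = 0.000762), with 3272 and 4147 normalized reads for LPS+IL-10, 254 and 359 for LPS alone, 516 and 534 for IL-10 alone, and 668 and 894 untreated. Hexokinase 2 (Hk2) was positive at 1.30 ± 0.24 and the pyruvate dehydrogenase kinase Pdk1 at 1.14 ± 0.29. Hexokinase 3 (Hk3), whose exons overlap Unc5a, was negative at -2.29 ± 0.48, and the platelet phosphofructokinase Pfkp at -1.11 ± 0.27. The remaining enzymes of the pathway, from Gapdh at -1.06 to Pdk3 at 0.79, did not pass, and the median of the list changed sign to 0.0614 with equal library totals and to 0.136 with the GC trend removed. Among 16 enzymes of nitric oxide, arginine and prostanoid metabolism, Arg2, Arg1 and Hpgds were positive and none negative. Arg1, the cytosolic arginase, rested on 85 reads with LPS+IL-10, 2 with LPS, 11 with IL-10 and 20 untreated. Hpgds, the haematopoietic prostaglandin D synthase, was positive at 2.04 ± 0.38. Without 1 library the calls of Hk2, Hk3 and Arg1 were lost in 4 fits each (adjusted p up to 0.0714, 0.105 and 0.0898) and that of Hpgds in 3 (0.0796). Nos2, the inducible nitric oxide synthase, had 63205 and 44117 normalized reads with LPS+IL-10, 60438 and 54324 with LPS alone, 11.4 and 10.6 with IL-10 alone, and 10.3 and 16.1 untreated. The joint and the LPS libraries overlapped, and the interaction of Nos2 was 0.10 ± 1.64 (adjusted p = 0.975).

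Genes of the IL-10 and STAT3 response split in both directions: 4 of 26 were positive and 8 negative, with a median of -0.05 that turned positive with equal library totals (0.197), in edgeR (0.162), in DESeq2 (0.164) and with the GC trend removed (0.208). Socs3, an inhibitor of cytokine receptor signalling that STAT3 induces, had 17975 and 12128 normalized reads with LPS+IL-10, 10098 and 8887 with LPS alone, 440 and 363 with IL-10 alone, and 52.45 and 17.97 without treatment. The order was joint, LPS, IL-10, untreated, with no overlap, and the joint level exceeded LPS by less than the IL-10 effect without LPS. The log2 interaction was therefore negative at -3.01 ± 0.57 (adjusted p = 0.0149), whereas on the additive scale the joint level was 5192 normalized reads above the sum. Its call was lost without the first LPS library (adjusted p = 0.0664), the second LPS+IL-10 library (0.0763) or either IL-10 library (0.0702 and 0.0627). Stat3 had the same order of single effects, with 12484 and 9764 normalized reads for LPS+IL-10, 12668 and 11534 for LPS alone, 3162 and 2526 for IL-10 alone, and 1289 and 1053 untreated. The joint and LPS levels of Stat3 overlapped, and its interaction was -1.41 ± 0.30 (adjusted p = 0.026).

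Cish, a SOCS-family inhibitor known as a STAT5 target, had an interaction of -5.29 ± 0.78 (adjusted p = 0.00538). This was the largest negative one among called genes with a mean of at least 100 normalized reads in some group. Larger negative estimates that did not pass with 14 libraries included Ccl17 (-8.04), Csf2 (-7.85), Il12a (-7.81), Cx3cl1 (-6.34), Il12b (-6.14), Il6 (-5.73) and Il1a (-5.41). Cish had 6.66 and 3.40 normalized reads with LPS+IL-10 and 191 and 170 with LPS alone. It had 7.34 and 8.83 with IL-10 alone, and 5.62 and 6.82 untreated. Only the LPS libraries were high, and the joint libraries overlapped with the untreated ones. Other negative members were the RNA-binding protein gene Arid5a (-3.02), the kinase gene Pim1 (-2.06), the Fc receptor Fcgr1 (-1.08) and the receptor chains Il10ra (-1.84) and Il2rg (-1.12). Il10ra, which binds IL-10 itself, had 2782 and 2327 normalized reads with LPS+IL-10, 10521 and 10539 with LPS alone, 1147 and 1324 with IL-10 alone, and 1538 and 1313 untreated. The LPS libraries were highest, and the joint libraries lay between them and the libraries without LPS. On the positive side stood Ddit4, an inhibitor of mTORC1 (3.12 ± 0.52), Dusp1, a MAP kinase phosphatase whose exons overlap Ergic1 (2.43 ± 0.43), Il21r (1.76 ± 0.36) and Osmr (4.95 ± 1.25), the last from levels of at most 46.5 normalized reads. Dusp1 lost its call without the first LPS or the first IL-10 library (0.0503 and 0.0569). Dusp1 had 7330 and 6158 normalized reads with LPS+IL-10, 2674 and 2558 with LPS alone, 403 and 690 with IL-10 alone, and 1321 and 933 untreated. IL-10 alone was under untreated while IL-10 with LPS was above LPS. Il4ra was higher with either agent, at 42746 and 24906 normalized reads with LPS+IL-10, 2164 and 1870 with LPS alone, 9334 and 6786 with IL-10 alone, and 1337 and 739 untreated. Its interaction of 1.02 ± 0.51 did not pass (adjusted p = 0.205), while with the GC trend removed it was 1.55 (adjusted p = 0.0118).

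Feedback inhibitors of Toll-like receptor signalling gave 1 positive and 2 negative members of 23. Over all genes tested 4.46% were positive and 2.26% negative, and these shares stand beside the count of every list. Tnip3, a binding partner of the NF-kappa-B inhibitor A20, was positive at 3.35 ± 0.69, with 98980 and 115104 normalized reads for LPS+IL-10 against 17295 and 20333 for LPS alone, 2234 and 2244 for IL-10 alone, and 3042 and 5275 untreated. Atf3, a repressor of inflammatory genes, was negative at -1.22 ± 0.27, and the inhibitor Nfkbib, whose exons overlap Sirt2, at -2.86 ± 0.72. Each of the 3 calls was lost without any 1 of 6 libraries, at an adjusted p of 0.0553 to 0.0962 for Tnip3, 0.0726 to 0.133 for Atf3 and 0.0748 to 0.17 for Nfkbib. Nfkbib also missed the threshold in edgeR (0.0556), with equal library totals (0.0555) and in the fit to 8 libraries (0.084). A20 itself (Tnfaip3) had an interaction of -0.08 ± 0.70 (adjusted p = 0.95).

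Cytokine genes lay below log-additivity as a group, but few passed: 3 of 20 inflammatory cytokines were negative and 1 positive, with a median of -3.47, and 19 of the 20 estimates were under 0. The negative count was 0 without the second untreated library, either LPS library, the second LPS+IL-10 library or either IL-10 library, 2 without the first LPS+IL-10 library and 7 without the first untreated library. Csf1, the macrophage growth factor, had 484 and 342 normalized reads with LPS+IL-10, 8860 and 8112 with LPS alone, 129 and 141 with IL-10 alone, and 171 and 149 without treatment. The joint level was a small part of the LPS level and still above untreated, and the interaction was -4.13 ± 0.98 (adjusted p = 0.0348). This call was lost without the second untreated library (0.0911), either LPS library (0.121 and 0.0776), the second LPS+IL-10 library (0.144) or either IL-10 library (0.106 and 0.134). Osm, oncostatin M, was negative at -2.98 ± 0.60, a call lost without any 1 of the same 6 libraries (0.053 to 0.089). Ifnb1, interferon beta, had 27 reads with LPS+IL-10, 366 with LPS, 0 with IL-10 and 1 untreated, so its estimate of -4.32 ± 1.10 (adjusted p = 0.0428) depends on the added constant. The adjusted p of Ifnb1 was 0.0635 with a constant of 0.5, 0.932 in edgeR and 0.343 in DESeq2. Tnfsf9, a costimulatory ligand, ran the other way at 1.83 ± 0.24 (adjusted p = 0.00323), with 1542 and 1442 normalized reads for LPS+IL-10, 475 and 519 for LPS alone, 262 and 290 for IL-10 alone, and 321 and 332 untreated. Tnfsf9 shares exon sequence with Gm11110.

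The number of negative cytokine genes also differed with the fit: it was 7 with an added constant of 10, 7 with the GC trend removed, 4 in DESeq2, 2 in edgeR and 1 with quantile normalization. It moved most with the libraries that set the error. The fit to all 14 libraries of the 6 h and 12 h table carries the spread between the 12 h libraries, whereas a fit to the 8 libraries at 6 h called 549 genes positive (4.28%) and 325 negative (2.54%), 6.82% in all, among them 363 of the 571 and 188 of the 290. In that narrower fit 13 of the 20 cytokines were negative and Tnfsf9 remained positive. Tnf had 12079 and 10530 normalized reads with LPS+IL-10, 258725 and 258132 with LPS alone, 445 and 832 with IL-10 alone, and 1568 and 1454 untreated. Tnf was lower in the libraries with IL-10 than in those without it, with LPS and without LPS, and the interaction was -3.21 ± 1.61 (adjusted p = 0.202) over 14 libraries and ± 0.395 (0.00705) over 8. Il6 had 1604 and 2100 normalized reads with LPS+IL-10, 100629 and 138443 with LPS alone, 8.97 and 9.42 with IL-10 alone, and 10.3 and 12.4 untreated. Only cells with LPS held appreciable Il6, and the interaction of -5.73 had an adjusted p of 0.115 over 14 libraries and 0.00103 over 8. In DESeq2 the adjusted p was 0.0355 for Il6 and 0.0173 for Il12b, and with the GC trend removed that of Il12b was 0.0433. Il12b, the shared subunit of IL-12 and IL-23, was at -6.14 (0.0778 and 0.00678) and Il1b, which overlaps the antisense gene Il1bos, at -4.45 (0.163 and 0.00262).

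**Figure D4:**
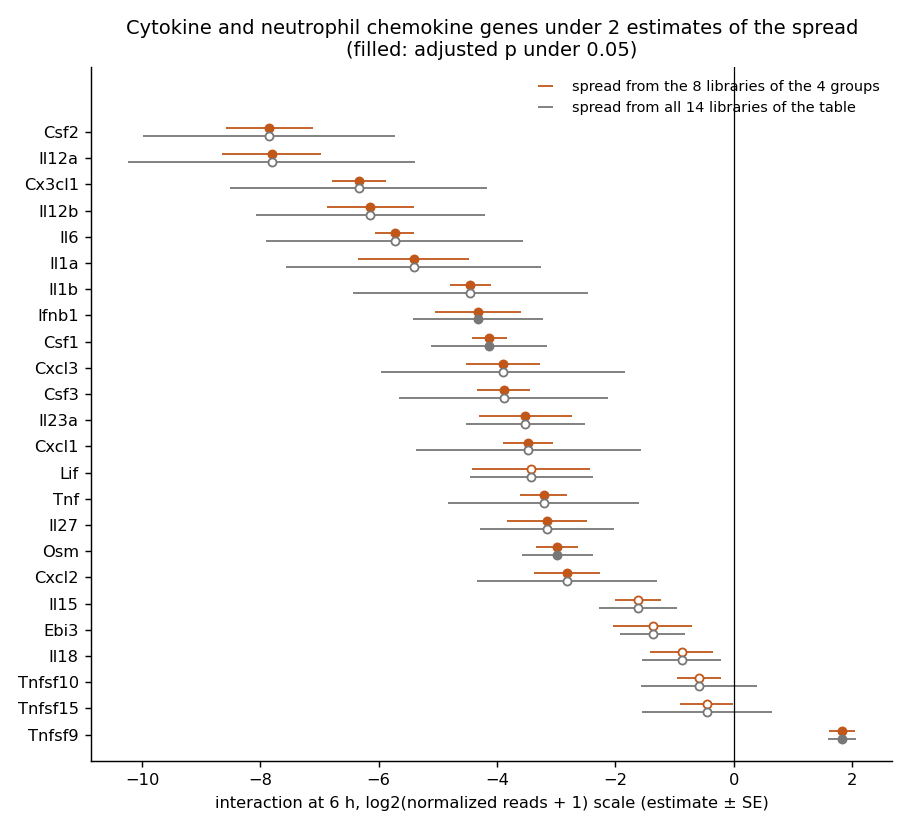
Interaction estimate ± SE at 6 h on the log2(normalized reads + 1) scale for 20 inflammatory cytokine and 4 neutrophil-attracting chemokine genes, with the error from the 8 libraries of the 4 groups (orange) or from all 14 libraries of the table (grey); filled points have an adjusted p under 0.05. The estimates are the same in both, and Tnf has an SE of 0.395 in the first and 1.61 in the second.

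Chemokine genes followed the cytokines. None of the 4 measured neutrophil-attracting chemokines passed in limma with 14 libraries (1 at an unadjusted p under 0.05, 0 in edgeR, 1 in DESeq2) and all 4 were negative with 8, at a median of -3.69. The 4 include Cx3cl1, a ligand known mainly for monocytes. Cxcl1, a ligand of the neutrophil receptor CXCR2, had 218 and 195 normalized reads with LPS+IL-10, 5631 and 6944 with LPS alone, 3.26 and 5.88 with IL-10 alone, and 12.2 and 15.5 untreated. Of 15 CC and interferon-linked chemokines, 3 were negative with 14 libraries and 11 with 8, none was positive, and all 15 estimates were under 0 with a median of -2.32. The CC chemokine gene Ccl8 had 886 and 799 normalized reads with LPS+IL-10 and 1422 and 1643 with LPS alone. It had 26.1 and 28.8 with IL-10 alone, and 3.75 and 1.86 untreated. IL-10 alone was above untreated but IL-10 with LPS was under LPS, which gave -3.81 ± 0.42 (adjusted p = 0.00155). The untreated level rested on few reads, each worth 0.937 and 0.62 normalized reads in the 2 libraries. The size of the estimate for Ccl8 therefore depends on the added constant. Ccl12 (-2.95 ± 0.68) and Cxcl16 (-1.92 ± 0.41), whose exons overlap Zmynd15, were the other negative members, and their calls were lost without any 1 of 7 and 6 libraries (adjusted p from 0.0535 to 0.116 and from 0.0619 to 0.118). Cxcl10, an interferon-inducible chemokine whose exons overlap Art3, was at -1.25 ± 1.27 (adjusted p = 0.516 with 14 libraries and 0.162 with 8).

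Among 34 interferon-stimulated genes no interaction passed in limma, and the list median was -0.50. At an unadjusted p under 0.05, 9 were negative and 0 positive, beside 29.8% of all genes under that unadjusted p in either direction and 13% with a negative sign. DESeq2 called 3 of the 34 negative, edgeR none, and the fit to 8 libraries 1, the nucleic acid sensor Zbp1 at -1.18. Ifit1, an RNA-binding antiviral gene, had an interaction of -0.31 ± 1.00 and the antiviral GTPase Mx1 one of -0.50 ± 1.15, errors larger than the estimates.

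Several of the 12 largest negative interactions among called genes belonged to genes outside these lists. Fgl2, a fibrinogen-like prothrombinase, had 25711 and 33994 normalized reads with LPS+IL-10, 68521 and 82394 with LPS alone, 995 and 743 with IL-10 alone, and 114 and 226 untreated. Each agent alone was above untreated, the joint level was under LPS, and the interaction was -3.76 ± 0.51 (adjusted p = 0.00376). Rgs1, a regulator of G protein signalling, had 940 and 1028 normalized reads with LPS+IL-10, 21717 and 27597 with LPS alone, 1120 and 1409 with IL-10 alone, and 2078 and 4144 untreated. The joint libraries were the lowest of all, and the interaction was -3.41 ± 0.87 (adjusted p = 0.0431). The Rgs1 call was lost without any 1 of 7 libraries (adjusted p from 0.0609 to 0.162), the exception being the first untreated one. Arhgap22, a Rac-inactivating protein gene with exons that overlap Gm15512, was a joint low at -4.21 ± 0.57. Ahr, the aryl hydrocarbon receptor, was a curbed rise at -3.32 ± 0.63, with 42.5 and 74.9 normalized reads for LPS+IL-10, 377 and 476 for LPS alone, 90.5 and 67.7 for IL-10 alone, and 53.4 and 62.6 untreated. Il12rb1, a receptor chain for IL-12 and IL-23, was negative at -4.31 ± 0.62, Bmp1, a procollagen protease, at -3.92 ± 0.98, and Mab21l3 at -3.59 ± 0.87. The untreated pair held 6 reads of Il12rb1 and 3 of Bmp1, and the IL-10 pair 25 and 4, so the size of both estimates depends on the added constant. The Bmp1 and Mab21l3 calls were each lost without any 1 of 7 libraries (adjusted p from 0.0674 to 0.148 and from 0.0545 to 0.142) and in edgeR (0.151 and 0.0765), and that of Bmp1 with the GC trend removed (0.0679). Ahr lost its call without either LPS or either IL-10 library (0.0517 to 0.0723). Vmn2r90 (-5.07 ± 1.33, adjusted p = 0.0469) belongs to a large family of similar vomeronasal receptor genes, had 1 read each with IL-10 and untreated, and reached an adjusted p of 0.44 in edgeR, 0.121 in DESeq2 and 0.0518 to 0.182 without any 1 of 7 libraries.

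Surface receptors and antigen presentation gave few calls, all negative except in the inflammasome list. Of 22 Fc, phagocytic and scavenger receptors, Marco (-2.41 ± 0.45), Fcgr1 (-1.08 ± 0.29) and Mertk (-0.98 ± 0.25) were negative. The calls of Fcgr1 and Mertk were each lost without any 1 of 6 libraries (adjusted p up to 0.19 and 0.153), with TMM scaling (0.0543 and 0.0573) and with equal library totals (0.0602 and 0.0659). Marco, which binds bacteria and particles, had 1124 and 751 normalized reads with LPS+IL-10, 5720 and 5247 with LPS alone, 185 and 268 with IL-10 alone, and 335 and 185 untreated. Of 15 class II and co-stimulation genes, the co-stimulatory ligand Icosl (-3.22 ± 0.79) and the invariant chain Cd74 (-1.79 ± 0.43) were negative. Of 16 inflammasome and pyroptosis genes, the ATP-gated channel P2rx7 (1.53 ± 0.27) and the flagellin-pathway adaptor Nlrc4 (1.61 ± 0.34) were positive. The median of this list was -0.30, with 9 estimates under 0 and 7 over it. In the fit to 8 libraries Nlrp3 (-2.5, adjusted p = 0.00481) and Il1b (-4.45, 0.00262) were negative, and P2rx7 (0.00855) and Nlrc4 (0.0343) stayed positive. P2rx7 had 736 and 709 normalized reads with LPS+IL-10, 267 and 248 with LPS alone, 1316 and 1304 with IL-10 alone, and 1358 and 1341 untreated, so that the joint libraries lay between LPS alone and the libraries without LPS. Leaving out 1 library ended the call of Icosl in 7 fits (adjusted p up to 0.146), of Cd74 in 6 (0.154), of Nlrc4 in 5 (0.109) and of P2rx7 in 3 (0.0666).

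Transcription factors split, with 3 of 26 positive and 2 negative. Fosl2 and Fos, AP-1 subunits, were positive at 1.87 ± 0.24 and 2.81 ± 0.55, and Cebpb, a macrophage regulator whose exons overlap Tmem189, at 1.83 ± 0.31. Irf8 and Irf4, interferon regulatory factors, were negative at -1.73 ± 0.35 and -2.35 ± 0.57. Cebpb had 1873 and 1746 normalized reads with LPS+IL-10, 438 and 607 with LPS alone, 140 and 141 with IL-10 alone, and 156 and 131 untreated. Irf8 had 3653 and 2866 with LPS+IL-10, 9183 and 8147 with LPS alone, 1498 and 1403 with IL-10 alone, and 1440 and 952 untreated. The call of Irf8 was lost without any 1 of 5 libraries (adjusted p up to 0.0962) and that of Fos without any 1 of 4 (0.075). The joint libraries were the highest for Cebpb and lay between LPS and the rest for Irf8.

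Sterol handling was also divided. Abca1, which exports cholesterol to lipid-poor apolipoprotein, was positive at 1.78 ± 0.32, and its counterpart Abcg1 was negative at -2.17 ± 0.33. Abca1 had 13007 and 17966 normalized reads with LPS+IL-10, 3886 and 4660 with LPS alone, 4677 and 4444 with IL-10 alone, and 3728 and 5090 untreated. Abcg1 had 1417 and 1132 with LPS+IL-10, 3656 and 3516 with LPS alone, 1387 and 1295 with IL-10 alone, and 1101 and 640 untreated. IL-10 thus went with more Abca1 and less Abcg1 among LPS-treated libraries, with no overlap in either gene. Scd2, a fatty acid desaturase, was positive at 3.02 ± 0.46 on the log2 scale but 1212 normalized reads below the sum on the additive scale, and Mylip, a ubiquitin ligase, was negative at -1.40 ± 0.25. In all 2 of 14 LXR targets were positive and 2 negative. Matrix metalloproteinases Mmp19 (2.44 ± 0.35) and Mmp8 (2.21 ± 0.41) were the 2 positive genes of 19 proteases and inhibitors, and exons of Mmp19 overlap Tmem198b. Abca1, Mylip and Mmp8 each lost their call without any 1 of 4 libraries (adjusted p up to 0.0684, 0.0693 and 0.0778).

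The 30 cell-cycle genes had a median interaction of 1.48, with 26 estimates over 0, beside a median LPS effect of -3.10 in libraries that the interaction shares. Only Ccnb1, cyclin B1, passed with 14 libraries, at 2.34 ± 0.58 (adjusted p = 0.0391), whereas 15 were positive and 1 negative with 8 libraries. The Ccnb1 call was lost without any 1 of 7 libraries (adjusted p from 0.0502 to 0.155) and with quantile normalization (0.0743), and DESeq2 called 11 members positive. Ccnb1 had 1278 and 1593 normalized reads with LPS+IL-10, 241 and 304 with LPS alone, 1960 and 1861 with IL-10 alone, and 1461 and 2297 untreated. The joint libraries lay above LPS and, apart from an overlap with the lower untreated library, under the libraries without LPS.

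The remaining lists held few calls, beside 4.46% positive and 2.26% negative among all genes tested. Among 18 genes of metal, iron and haem handling, the zinc and iron importer Slc39a14 was positive at 2.00 ± 0.27, with 6012 and 6545 normalized reads for LPS+IL-10, 998 and 1056 for LPS alone, 1991 and 1666 for IL-10 alone, and 1163 and 1216 untreated. LPS alone was the lowest and the joint libraries were far the highest. Among 19 NRF2 targets, glutathione reductase (Gsr) was positive at 1.22 ± 0.24, a call lost without any 1 of 5 libraries (adjusted p up to 0.0852). None of 32 respiratory chain genes passed in limma, at a median of -0.64, with 16 negative at an unadjusted p under 0.05 (13% of all genes were), and edgeR called 0 and DESeq2 1. None of 20 genes of the unfolded protein and integrated stress responses passed, at a median of -0.23, with 3 at an unadjusted p under 0.05 (29.8% of all genes were), 0 in edgeR and 2 in DESeq2.

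**Figure D5:**
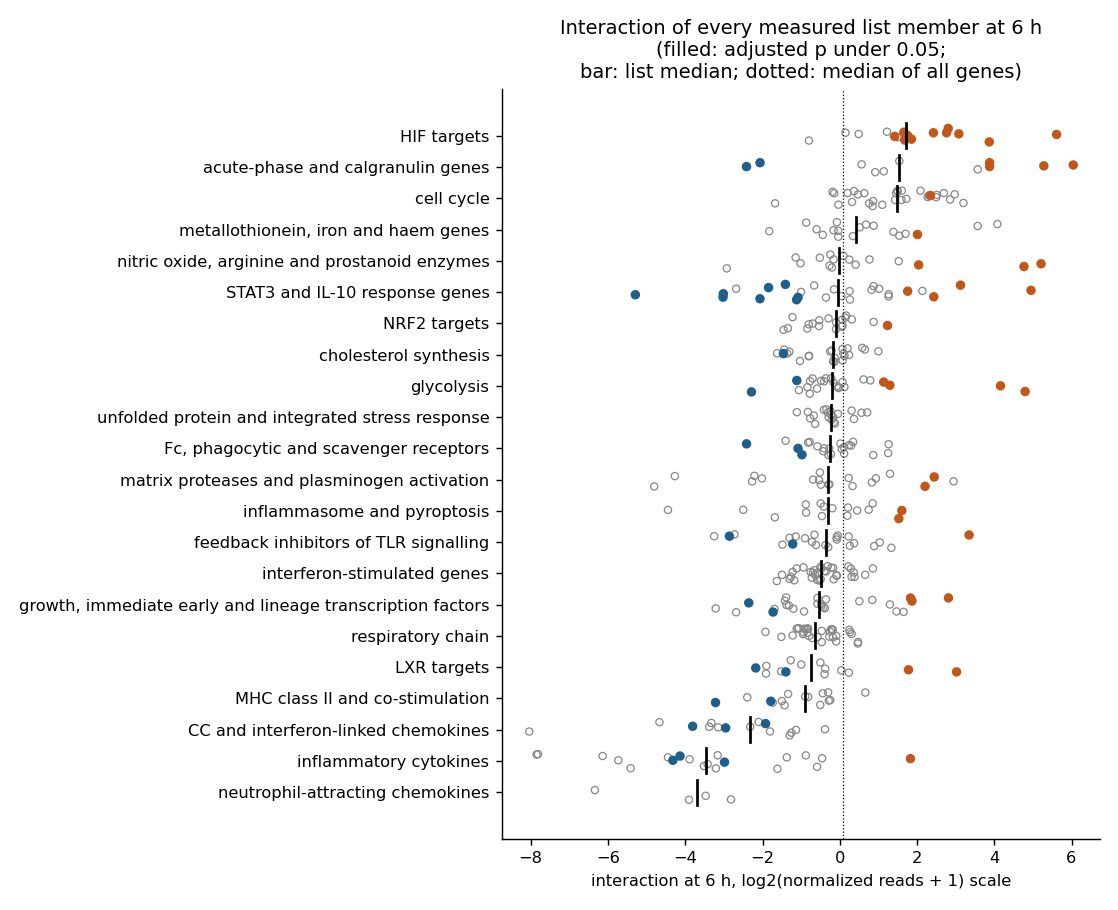
Interaction at 6 h on the log2(normalized reads + 1) scale of every measured member of 22 gene lists; filled points have an adjusted p under 0.05 (orange positive, blue negative), the bar is the list median and the dotted line the median of all genes (0.07). HIF targets have the most filled points on the positive side (11 of 16), and the medians of the cytokine and neutrophil chemokine lists lie at -3.47 and -3.69.

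At other times the pattern differed in part. In the separate 3 h libraries 181 genes were positive (1.47%) and 163 negative (1.32%) of 12338 tested, 2.79% in all. Of the positive genes at 6 h, 57 were also positive at 3 h, 9.98% of the 6 h list and 31.5% of the 3 h list, and 6 were negative. Of the negative genes 31 were shared, 10.7% of the 6 h list and 19% of the 3 h list, and 4 were positive. Of the 12 largest positive interactions 8 were positive at 3 h too, among them Pfkfb3 (2.74 ± 0.12), Ggta1 (2.86 ± 0.12) and Saa1 (5.93 ± 0.86). Egln3 and Arg2 did not pass at 3 h (-0.54 ± 0.21 and 0.43 ± 0.39), and Kcnk13 was negative there (-0.58 ± 0.13, adjusted p = 0.0495). At 12 h, in libraries that share the untreated pair with 6 h, 19 genes were positive (0.148%) and 30 negative (0.234%), 0.382% in all. Of these, 11 positive and 17 negative genes were shared with 6 h (1.93% and 5.86% of the 6 h lists), and 0 were opposite. Of the genes called at 6 h, 497 of 571 positive and 265 of 290 negative ones had the same sign at 12 h, which the shared untreated pair favours. Hp was at 4.66 ± 0.78, Ccl8 at -5.77 ± 0.42 and Fgl2 at -4.69 ± 0.51, and each passed there. The difference of the 2 interactions, in which the untreated pair cancels, was positive in 10 genes (0.078%) and negative in 38 (0.296%), 0.375% in all. With replicate 1 of the 12 h groups left out, limma called 0 genes positive and 1 negative, Lhfpl2, and 779 genes had an unadjusted p under 0.05 there, against 1605 with all libraries.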

How the data were processed

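RNA sequencing of 22 macrophage libraries was deposited as 2 tables with 1 value per gene and library. The values are signal of the kind read counts divided by size factors, as deposited by the authors; TopHat2, DESeq2 and the GRCm38 build are listed, without versions, per the submitters' processing notes. Dividing each library's values by their smallest step gave whole reads for 100% of values (tolerance 0.01 reads), from 15162195 to 31772075 reads in the 8 libraries compared; 1 read is worth 0.588 to 2.17 normalized reads, which limits low values.

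Values of the table with 6 h and 12 h libraries were put on the log2(value + 1) scale, and genes that reached 10 normalized reads in 2 or more libraries were fitted with limma 3.58.1 (R 4.3.3; empirical Bayes with trend) over 14 libraries in 7 groups, with 7 residual degrees of freedom, no covariate, Benjamini-Hochberg adjustment and a threshold of 0.05. Differences between 2 groups on this scale understate the change of low genes, while an interaction can move either way. The interaction of Ifnb1 was -4.32 here and -2.58 in edgeR, and that of Saa1 was 5.28 and 7.03. The 3 h table was fitted by itself. Count tests on recovered reads used edgeR 4.0.16 and DESeq2 1.42.0. The fits were tested on simulated data.

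The genes named are the 12 largest positive and 12 largest negative interactions among called genes with a mean of at least 100 normalized reads in some group and the same sign in all 16 library combinations, up to 4 called members with the smallest p from each of 22 lists, and a panel of cytokine and regulator genes. Other genes were named after their values were seen. The members and lists were chosen with earlier results of these data known. Exon overlaps come from GENCODE M21; whether counting used strand is not given in the sources used here. A few genes, and the count of the list of cholesterol genes, are not reported here.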

Additional observations from a re-analysis of the deposited data

Results flagged for a closer look

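For 12 of the genes described above, the interaction at 12 h differed from that at 6 h by limma's test of the difference, in which the shared untreated pair cancels. All 12 were positive at 6 h and lower at 12 h. They had been named for their interaction at 6 h, which the difference subtracts, so the choice itself favoured this direction. Among the largest positive interactions the difference was -4.97 for Arg2, -4.54 for Ppp1r3b, -4.53 for Lhfpl2, -3.98 for Pfkfb3, -3.88 for Egln3, -3.39 for Kcnk13 and -2.88 for Ggta1, on the log2(normalized reads + 1) scale. The HIF targets Ankrd37 and Ndrg1 differed by -3.96 and -3.16, the mTORC1 inhibitor gene Ddit4 by -4.15, the transcription factor gene Cebpb by -2.20 and hexokinase 2 (Hk2) by -1.83. Adjusted p-values ran from 0.000866 for Lhfpl2 to 0.0423 for Pfkfb3. With the replicate number as a block, the adjusted p was 0.0738 for Pfkfb3, 0.0665 for Cebpb, 0.0603 for Hk2 and 0.0581 for Kcnk13, and the other 8 stayed called. With replicate 1 of the 12 h groups left out, every difference but that of Lhfpl2 (-4.03, adjusted p = 0.0298) lost its call, and the adjusted p of the other 11 ran from 0.139 to 0.53.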

How the results depend on the processing

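All 571 positive and 290 negative genes kept their sign in every setting that tested them, and none was called in the opposite direction. For the fits without 1 library this follows from the shared sign over all 16 library combinations. The replicate block, the library weights and the fit to 8 libraries leave the estimates unchanged, so they could not turn a sign. The counts moved. They were 934 positive and 183 negative with equal library totals, 267 and 151 with quantile normalization, 1159 and 574 in DESeq2, 1232 and 930 with the GC trend removed, and 1009 and 722 with the replicate block and the GC trend removed together. The other scalings, filters, added constants, library weights, edgeR and the fit to 8 libraries stayed within 1.5 times of the reported counts. Leaving out 1 library gave 109 to 2231 positive and 38 to 1989 negative genes.

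Replicate numbers were not taken to pair the samples, since not every pair of groups deviated together: at 6 h the correlation of same-numbered deviations was 0.329 to 0.703 among LPS+IL-10, LPS and untreated and -0.39 to -0.155 between IL-10 and each of them, and at 3 h it ran from -0.0507 to 0.273. The replicate block gave 423 positive and 231 negative genes at 6 h, and 243 and 255 at 3 h. With it 6 named genes were no longer called at 6 h (Rgs1 0.0597, Ifnb1 0.0595, Vmn2r90 0.0647, Mertk 0.0577, Fcgr1 0.071 and Ccnb1 0.0543, adjusted p). For the difference between 12 h and 6 h it gave 4 positive and 20 negative genes, and leaving out replicate 1 of each 12 h group gave 0 and 1.

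Of the named genes, Nos2 turned to -0.204 without the second untreated library and to -0.164 without the first LPS+IL-10 library, and was 0.395 without the first untreated library. Il10 turned to -0.18 without the second untreated library and was 1.04 without the first, where it passed (adjusted p = 0.0494). Nos2 passed in none of these fits, and the cause was not tested. With 2 libraries a group, genes with few reads depend most on the added constant.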

Other observations

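Some of the smallest p-values belonged to genes outside the naming rule, chosen here after their values were seen. Nek6, a mitotic kinase gene, had 4405 and 4180 normalized reads with LPS+IL-10, 200 and 202 with LPS alone, 1455 and 1356 with IL-10 alone, and 1090 and 1172 untreated, an interaction of 4.10 ± 0.34 (limma, adjusted p = 0.000307). Rab31, a small GTPase of vesicle traffic, had 18221 and 20275 normalized reads with LPS+IL-10, 1557 and 1721 with LPS alone, 6313 and 5780 with IL-10 alone, and 4853 and 5795 untreated. In both genes LPS alone was lowest and the joint level highest. Adora3, the A3 adenosine receptor, was a joint rise, with 1094 and 1084 normalized reads for LPS+IL-10 against at most 72.6 in any other library, and an interaction of 3.91 ± 0.45.

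Apbb2, an adaptor of the amyloid precursor protein, was a joint low at -2.57 ± 0.21 (adjusted p = 0.000307), with 93.3 and 88.5 normalized reads for LPS+IL-10 and at least 482 in every other library. Atp6v0a1, a subunit of the proton pump that acidifies vesicles, had 1901 and 1751 with LPS+IL-10, 6269 and 5743 with LPS alone, 6243 and 5436 with IL-10 alone, and 4440 and 3730 untreated, an interaction of -2.23 ± 0.23. Each agent alone was above untreated and the joint level was the lowest. Blnk, a signalling adaptor, was also lowest with both agents, at -2.52 ± 0.27.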
